A study of Mus musculus with 9 samples.

Results

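Venous endothelial cells were compared with capillary endothelial cells of the adult mouse brain, cell by cell and gene by gene. The members were the 45 cells labelled vEC, set against the 787 cells labelled capilEC, of 1235 cells in the series. They were taken by the deposited label of each cell, without regard to any measured value. The vEC cells made up 3.64% of the cells and the capilEC cells 63.7%, with exact binomial 95% intervals of 2.67 to 4.85% and 61.0 to 66.4%. All came from brains of adult mice that were broken up mechanically and by enzymes into vascular fragments and then into single cells, which were read with Smart-seq2, a method that sequences whole transcripts. The labels are read here as venous and capillary endothelial cells, and aEC, with 116 cells, as arterial; the way each name was assigned is not stated. Neither label carried a treatment or an engineered allele. Strain, sex and the number of animals are not stated.

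Blood leaves the brain's capillaries through venules, where the endothelial lining changes its work. Capillary endothelium carries the densest set of nutrient carriers of the blood-brain barrier, while post-capillary venules are the usual site at which leukocytes adhere and cross. Venous identity is held by the nuclear receptor COUP-TFII, the product of Nr2f2, which restrains Notch signalling in veins of the mouse embryo.

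With 1 deposited sample per label there is no replicate, and the labels were not tested against each other. Values are given for the pooled cells and, for the genes described most fully, for each of the 4 plates, named s169s, s480s, s482s and s483s, which held 14, 6, 12 and 13 vEC cells and 223, 150, 198 and 216 capilEC cells. The plate was taken from the prefix of a cell's name, which is followed by a well, and did not serve as a replicate. Genes that set the labels may be among those that differ, so every difference is a description. Reads of a label were summed and scaled to reads per 1000000 (CPM), and differences are log2(CPM + 5) of vEC minus that of capilEC. In each sum fewer cells with a transcript and less transcript per cell cannot be told apart; levels in single cells are given for the leading genes described most fully.

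The vEC cells held 14114631 reads, with a median of 261300 per cell (104703 to 854836), and the capilEC cells 172998640 reads, with a median of 192941 (100364 to 750478). With every cell thinned to 100000 reads, vEC cells held a median of 3286 detected genes and capilEC cells 2783. Plate medians were 2959, 3112, 3824 and 3408 in vEC and 2841, 2732, 2820 and 2725 in capilEC, so vEC cells held more genes on every plate. Intervals cover counting error only, because reads copied by PCR carry no molecular identifiers and may repeat a molecule. No cell name stood under both labels, and 0 of the 832 cells had counts equal to those of another.

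The labelled cell type was checked against 15 pan-endothelial genes, among them Cldn5, Cdh5 and Pecam1. Their summed level had a median of 15350 CPM over vEC cells and 22014 CPM over capilEC cells. A total of 3 cells went against their labels, with under 10% of their label's median. The vEC cell among them, on plate s480s, held 382 CPM of the endothelial list, 6934 CPM of a leukocyte list and 26226 CPM of class II antigen presentation genes. Both capilEC cells lay on plate s169s: 1 held 668 CPM of the endothelial list and 3738 CPM of the leukocyte list, the other 334 CPM and 23920 CPM of an astrocyte list. The next lowest cells held 7969 CPM in vEC and 6556 CPM in capilEC. The 3 cells were kept. Of the named genes, Cd74, Slc38a1, Nfkb2 and Il4ra moved by over 0.3 on the log2 scale without them, and these values are given with their lists, as are the changed counts of the lists described.

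Reads of endothelial genes also stood in cells of other labels, which bears on how a share of cells is read. Cldn5, an endothelial tight junction gene, had a read in 137 of 137 thinned cells labelled MG, the microglia label, whose median depth was 232674 reads. Among MG cells, 81 (59.1%) held over 100 CPM of Cldn5, but 0 held over 100 CPM of Lrg1, Lcn2, Ackr1 or Nr2f2. Of other endothelial genes described here, 26 MG cells passed that bound for Cxcl12 (19.0%), 9 for Vcam1 (6.57%) and 6 for Spock2 (4.38%). The count was 4 each for Mfsd2a, Nrp2 and Stra6 (2.92%) and 3 each for Ptgs2, Slc38a5, Alpl and Htra1 (2.19%). It was 2 each for Vwf, Slc1a1 and Mgp (1.46%), 1 each for Adh1 and Gpr182 (0.730%) and 0 for Ifitm1, Myof, Rapgef4 and Axin2. A capilEC share at or below that of MG was not set apart from background, and the source of such reads was not tested. Whether MG cells make some of these transcripts themselves was not tested either. Cd9, Ivns1abp and Tmem176a passed the bound in 124, 97 and 52 MG cells, so for these the MG label gives no background.

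Of 11820 genes with over 5 CPM in either label, 35 were at least 4-fold higher in vEC, with at least 50 CPM and a read in at least 50% of vEC cells. That is 0.296% of the genes measured. By the same size rule 25 genes, 0.212%, were higher in capilEC. Some counted genes overlap each other, among them Akap2 with Pakap, and Slc1a1, Adh1 and Cd9 each with a gene left unnamed. Such pairs are not independent, and the same reads may stand behind both genes. The split of 35 to 25 depended on scaling: it was 31 to 34 with TMM factors and 31 to 33 with DESeq2 size factors, which moved the median of all measured genes by -0.12 and -0.103. All 35 and all 25 had the same direction on all 4 plates, against 23.3% of the genes measured. Both sets were chosen by a large pooled difference over the same plates, so this follows in part from the choice. At least 2-fold differences were far commoner, with 1294 genes higher in vEC (10.9%) and 1574 higher in capilEC (13.3%), and most of those in vEC were uneven over plates. Of the 1294 genes, 320 were higher in vEC on all 4 plates, while 1272 of the 1574 were higher in capilEC on all 4. A plate held only 6 to 14 vEC cells, so 1 cell can set a vEC value. Dropping each gene's most abundant cell in each label moved the median of all measured genes by -0.342. The part of cell number in this contrast was not tested. Most expressed genes were alike: of 5313 genes with at least 50 CPM in either label, 4420 (83.2%) lay within 2-fold. A further 60 genes were 4-fold higher in vEC and 56 in capilEC at 50 CPM or more, but were read in under 50% of the cells of that label. Left unnamed were 4 genes of the first set and 1 of the second, which have only predicted or clone names.

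Among the 35 genes, the 2 largest differences belonged to secreted proteins of the acute phase, Lrg1 and Lcn2. Lrg1, which encodes leucine-rich alpha-2-glycoprotein, stood at 951, 427, 484 and 545 CPM in vEC on plates s169s, s480s, s482s and s483s, against 1.89, 1.25, 2.60 and 1.01 CPM in capilEC. Pooled, this was 591 CPM (579 to 604) in vEC and 1.66 CPM (1.48 to 1.87) in capilEC, a log2 difference of 6.48. Single vEC cells ran from 0 over a median of 70.2 to 3784 CPM, and single capilEC cells from 0 over a median of 0 to 159 CPM. The level was thus high in part of the vEC cells: 22 of 45 held over 100 CPM, against 2 of 787 capilEC cells. After thinning, 62.2% of vEC cells (46.5 to 76.2%) and 9.40% of capilEC cells (7.46 to 11.7%) had a read, beside 5.84% of MG cells (2.55 to 11.2%). The pooled capilEC share lay above that of MG, but the intervals overlapped. By plate the capilEC share was 16.6, 4, 7.07 and 7.87% in the order above, so it was highest on s169s and lay under that of MG on s480s. It was thus not set apart from background.

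Lcn2, which encodes lipocalin-2, a binder of bacterial iron carriers, stood at 1341, 499, 956 and 538 CPM in vEC on the 4 plates in the same order, against 9.52, 6.72, 7.25 and 17.3 CPM in capilEC. The log2 difference was 5.71, and 4.60 on the plate where it was least. Over 100 CPM were 32 of 45 vEC cells and 9 of 787 capilEC cells (1.14%). Ptgs2, which encodes the inducible cyclooxygenase, stood at 228, 369, 333 and 291 CPM in vEC against 13.1, 8.00, 8.07 and 2.33 CPM in capilEC, a log2 difference of 4.62. Over 100 CPM of Ptgs2 were 24 of 45 vEC cells and 11 of 787 capilEC cells (1.40%), and the capilEC share lay under that of MG cells. Ifitm1, an interferon-induced membrane protein gene, stood at 312, 126, 339 and 155 CPM in vEC against 2.17, 9.48, 5.54 and 2.31 CPM in capilEC, and 22 of 45 vEC cells and 6 of 787 capilEC cells (0.762%) held over 100 CPM. For these 4 genes the lowest vEC plate stood above the highest capilEC plate.

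Vcam1, the vascular adhesion molecule that binds leukocyte integrins, stood at 1856, 940.1, 704 and 669 CPM in vEC against 39.0, 116, 72.8 and 28.1 CPM in capilEC, a log2 difference of 3.84. Its levels in single cells had a median of 614 CPM in vEC and 0 in capilEC, and 30 of 45 vEC cells and 37 of 787 capilEC cells (4.70%) held over 100 CPM, and the capilEC share lay under the 6.57% of MG cells. Also among the 15 leading genes were Gpr182, an atypical chemokine receptor (log2 difference 3.70), H2-Q6 (3.56), Adh1 (3.42), Myof (3.28), H2-Q7 (3.18), Nrp2 (3.05), Mgp (2.94), Tmem176a (2.82) and Cd9 (2.62). Adh1, an alcohol and retinol dehydrogenase, had 733 CPM in vEC and 63.8 CPM in capilEC, and 31 of 45 vEC cells held over 100 CPM against 54 of 787 capilEC cells (6.86%). Myof, myoferlin of membrane repair, stood at 67.5, 450.3, 166 and 245 CPM in vEC, against 13.3, 39.5, 14.4 and 7.70 CPM in capilEC, and 18 of 45 vEC cells and 24 of 787 capilEC cells (3.05%) held over 100 CPM. Nrp2, a coreceptor of VEGF and semaphorins, stood at 309, 406, 191 and 236 CPM in vEC against 17.9, 37.9, 24.98 and 28.3 CPM in capilEC, and 20 of 45 vEC cells and 32 of 787 capilEC cells (4.07%) held over 100 CPM. Cd9, a tetraspanin, stood at 627, 429.8, 384 and 513 CPM in vEC, against 135, 58.8, 66.5 and 49.6 CPM in capilEC. Mgp, matrix Gla protein, was carried by few cells: 12 of 45 vEC cells and 15 of 787 capilEC cells (1.91%) held over 100 CPM, its difference ran from 1.17 to 5.03 over plates, and aEC stood at 430.0 CPM against 196 in vEC. H2-Q6 and H2-Q7 are paralogs, and of all 40-base windows of the longest H2-Q6 transcript 16.2% occur in H2-Q7, so reads may have been split between them.

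**Figure D1:**
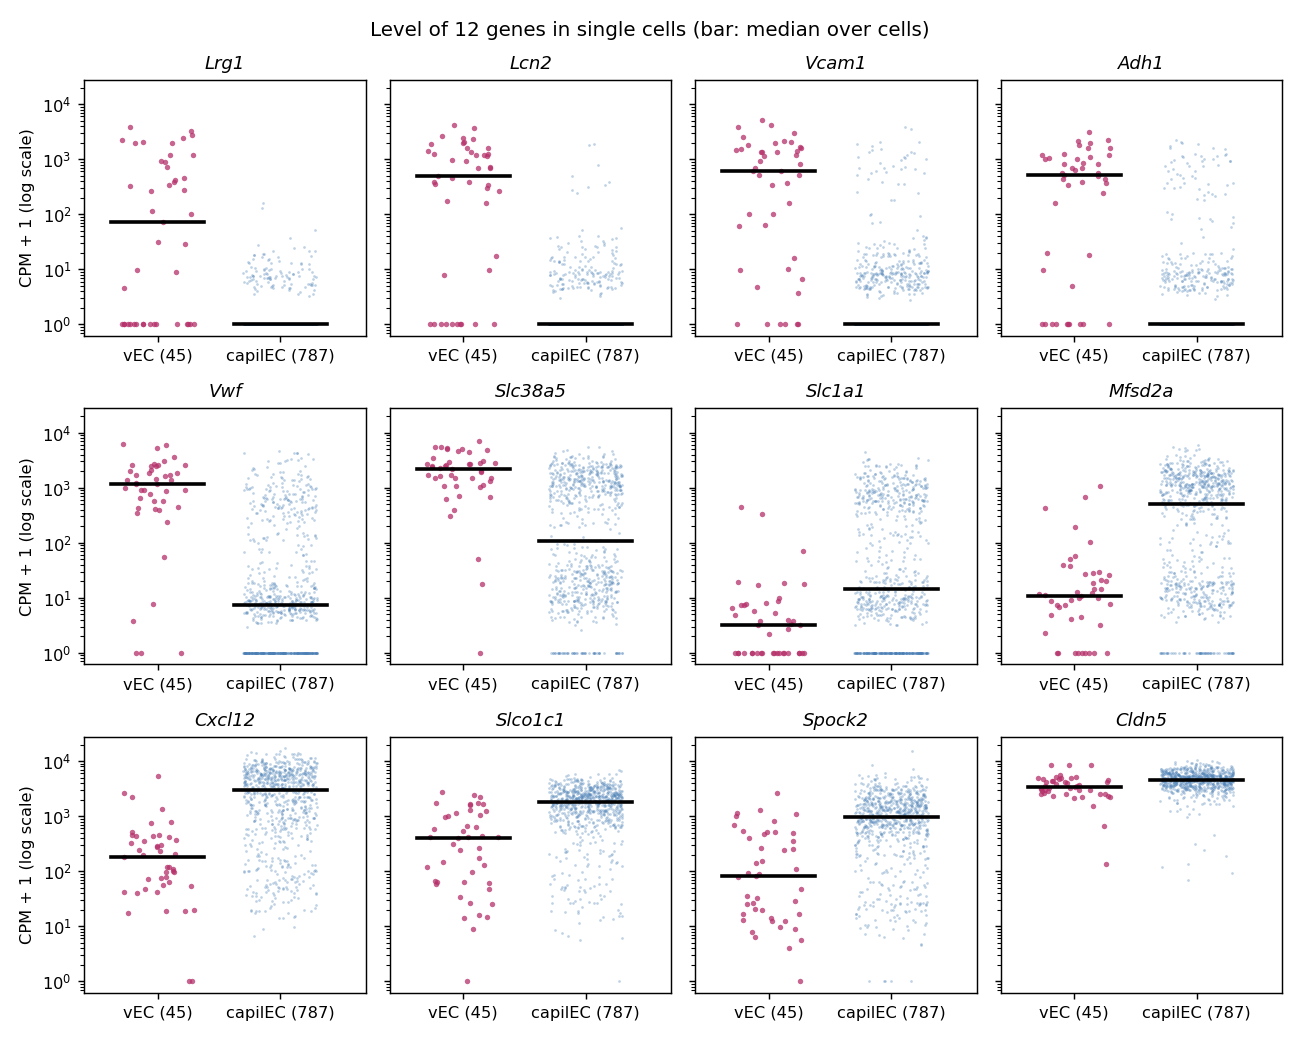
Level of 12 genes in single cells, with vEC on the left and capilEC on the right of each panel; every point is a cell, the bar is the median over cells, and the axis is CPM + 1 on a log scale. Lrg1 and Lcn2 reach over 100 CPM in 22 and 32 of 45 vEC cells and in 2 and 9 of 787 capilEC cells, while Cldn5 is high under both labels.

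Towards capilEC the leading gene was Stra6, whose protein takes up retinol from its plasma carrier. It stood at 1.42, 5.71, 2.77 and 14.3 CPM in vEC on plates s169s, s480s, s482s and s483s, against 36.7, 669, 505 and 506 CPM in capilEC, a log2 difference of -5.18. The capilEC level was low on s169s, where the difference was -2.70. Over 100 CPM were 1 of 45 vEC cells and 226 of 787 capilEC cells (28.7%), so this was a gene of part of the capillary cells. Alpl, the tissue-nonspecific alkaline phosphatase, had 9.64 CPM in vEC and 271 CPM in capilEC (-4.24), and 1414 CPM in the aEC cells. Over 100 CPM of Alpl were 1 of 45 vEC cells and 173 of 787 capilEC cells (21.98%).

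Slc1a1 and Mfsd2a are carriers of the capillary wall. Slc1a1, a glutamate and aspartate transporter, stood at 4.62, 1.43, 13.1 and 33.5 CPM in vEC against 379, 404, 399 and 364 CPM in capilEC, a log2 difference of -4.14. The groups of plates did not overlap, and over 100 CPM were 2 of 45 vEC cells and 300 of 787 capilEC cells (38.1%). An exon of Slc1a1 overlaps one of a Rik-named gene on the opposite strand over 1524 bases, and reads of the pair cannot be told apart without strand. Mfsd2a, which carries lysophosphatidylcholine with docosahexaenoic acid and restrains transcytosis in the mouse brain, stood at 41.9, 4.28, 155 and 8.41 CPM in vEC against 509.7, 1053, 872 and 933 CPM in capilEC (-3.82). In single cells Mfsd2a had a median of 9.64 CPM in vEC and 504 CPM in capilEC, and 5 of 45 vEC cells and 464 of 787 capilEC cells (59.0%) held over 100 CPM. A single vEC cell held 37.7% of the vEC reads of Mfsd2a, and the difference was -4.39 without it.

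Cxcl12, a chemokine gene, stood at 410.0, 231, 547 and 271 CPM in vEC against 1197, 4896, 4068 and 4081 CPM in capilEC, a log2 difference of -3.27. The lowest capilEC plate, s169s, stood above the highest vEC plate, and 27 of 45 vEC cells and 697 of 787 capilEC cells (88.6%) held over 100 CPM. Ivns1abp, whose protein binds actin and an influenza virus protein, stood at 7.11, 25.2, 35.3 and 32.5 CPM in vEC against 273, 405, 390.1 and 453 CPM in capilEC (-3.60), and 2 of 45 vEC cells and 285 of 787 capilEC cells (36.2%) held over 100 CPM. Rapgef4, which encodes the cAMP sensor EPAC2, had 4.46 CPM in vEC and 94.6 CPM in capilEC (-3.40), and after thinning 11.1% of vEC cells (3.71 to 24.1%) and 53.5% of capilEC cells (49.9 to 57.0%) had a read. Rgcc, a cell cycle regulator, followed at -2.49, and Spock2, a proteoglycan gene that met the size rule, stood at -2.01 with 172, 443, 343 and 305 CPM in vEC against 649.9, 1512, 1387 and 1419.7 CPM in capilEC. Also among the 15 were Akap2 and Pakap (-2.39 and -2.38), Efr3b (-2.24), Map3k1 (-2.21), Igf1r (-2.17) and Tmem245 (-2.13). Akap2 and Pakap share 94.2% of 40-base windows and are 1 locus, so they are the same measurement. Among the 30 leading genes Adh1, Cd9, Gpr182, Ivns1abp, Rapgef4 and Tmem176a also overlap exons of a measured gene on the opposite strand, by 62 to 279 bases, and are uncertain to that extent.

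**Figure D2:**
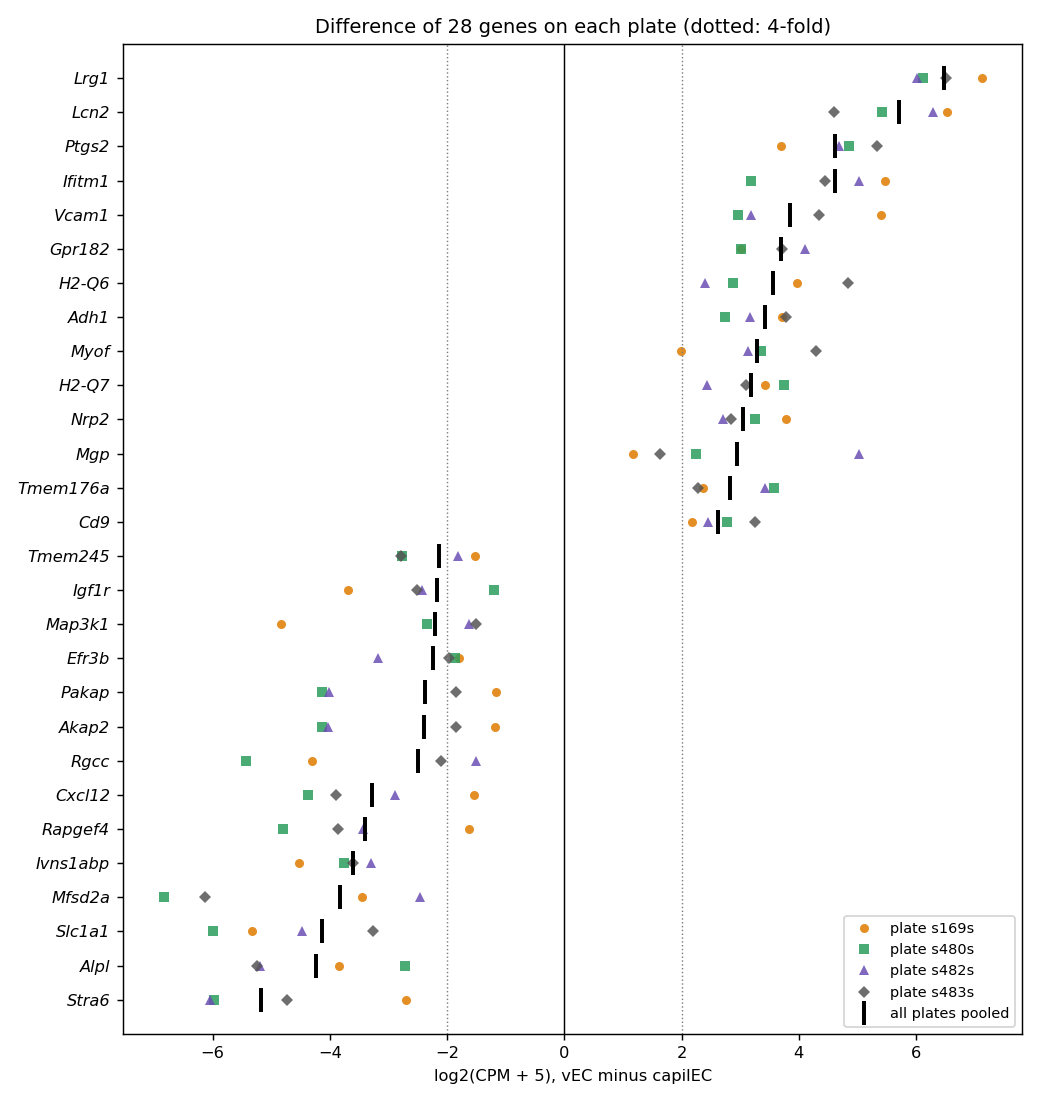
Log2(CPM + 5) of vEC minus capilEC for leading genes in each direction, with 1 symbol per plate, a black tick for the pooled cells and dotted lines at 4-fold. All symbols of a gene lie on its own side of 0; Lrg1 runs from 6.01 to 7.12 over plates and Stra6 from -6.04 to -2.70.

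The start regions of the leading genes differed in how many CpG pairs they held, and 4 are printed as examples, taken from RefSeq on build GRCm38.p6. The 4 do not stand for every leading gene. Stra6 and Alpl, which led towards capilEC and are not printed, had low ratios of observed to expected CpG (0.228 and 0.449). Nrp2 and Myof, higher in vEC, had high ones (0.986 and 0.971). Each is the 250 bases before the transcription start, 5′ to 3′ on the gene's strand, with every CG in capitals. Lrg1 lies on the minus strand at chr17:56121947-56122196 and Lcn2 on the minus strand at chr2:32387740-32387989, with 2 and 3 CG. Slc1a1 lies on the plus strand at chr19:28834885-28835134 and Mfsd2a on the minus strand at chr4:122961189-122961438, with 27 and 17 CG.
Lrg1: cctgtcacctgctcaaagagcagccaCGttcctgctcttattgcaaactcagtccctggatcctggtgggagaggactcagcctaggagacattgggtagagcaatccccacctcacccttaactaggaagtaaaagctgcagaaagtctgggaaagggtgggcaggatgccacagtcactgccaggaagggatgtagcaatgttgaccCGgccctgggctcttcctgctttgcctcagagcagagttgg
Lcn2: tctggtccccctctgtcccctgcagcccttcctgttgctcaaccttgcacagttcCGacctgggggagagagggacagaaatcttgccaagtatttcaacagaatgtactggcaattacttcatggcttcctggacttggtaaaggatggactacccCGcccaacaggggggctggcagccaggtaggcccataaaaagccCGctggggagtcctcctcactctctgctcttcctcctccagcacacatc
Slc1a1: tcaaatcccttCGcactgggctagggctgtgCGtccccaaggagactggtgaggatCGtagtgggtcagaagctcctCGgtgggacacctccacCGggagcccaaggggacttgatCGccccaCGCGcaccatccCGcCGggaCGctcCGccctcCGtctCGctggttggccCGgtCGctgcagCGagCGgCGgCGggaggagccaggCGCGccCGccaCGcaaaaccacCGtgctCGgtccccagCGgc
Mfsd2a: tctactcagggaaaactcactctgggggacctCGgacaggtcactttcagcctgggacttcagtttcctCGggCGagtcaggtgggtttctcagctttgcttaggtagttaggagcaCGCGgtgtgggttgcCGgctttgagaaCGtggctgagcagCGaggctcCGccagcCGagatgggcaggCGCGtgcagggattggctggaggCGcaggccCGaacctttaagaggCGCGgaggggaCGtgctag

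A start region was found for 28 of the 35 genes higher in vEC and for 21 of the 25 higher in capilEC, with Akap2 and Pakap, which share theirs, both counted. The ratio of observed to expected CpG, averaged over a gene's starts, had a median of 0.38 in the first set and 0.72 in the second. It was under 0.5 for 18 of 28 genes higher in vEC (64.3%) and for 3 of 21 higher in capilEC (14.3%), Stra6, Spock2 and Alpl. Over the 27025 genes of the RefSeq table the median was 0.38 and 59.4% were under 0.5. Of the genes measured here 75.4% had a start region in the table, and those 8912 genes had a median of 0.74, with 20.5% under 0.5. Of genes with at least 50 CPM in either label 79.1% had one, with a median of 0.75 and 17.7% under 0.5. Beside these expressed genes the capilEC set was alike and the vEC set lower, while beside the whole table the vEC set was alike. Every set lacked some genes, and their part was not tested. Low ratios in the set of vEC were those of Nr2f2 (0.0640), Tmem176b (0.0798), Tmem176a (0.0990), Lrg1 (0.105), Tmem252 (0.122) and Lcn2 (0.154), and high ones those of Nrp2 (0.986) and Myof (0.971). The 10-base NF-kB consensus, searched on both strands, was found for 5 of 28 genes of the first set (17.9%). In the second set it was found for 7 of 21 (33.3%), Akap2 and Pakap both among them. The shares were 8.23% of all genes in the table and 10.6% of the measured genes with a start region. Here and for TATAAA a match at any start of a gene counts, so genes with more starts had more chances. TATAAA on the gene's strand, 45 to 16 bases before the start, was in 2 of 28 (7.14%) and 0 of 21, against 2.57% of all genes in the table and 1.43% of the measured ones. These are matches of letters in a window and no binding sites.

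**Figure D3:**
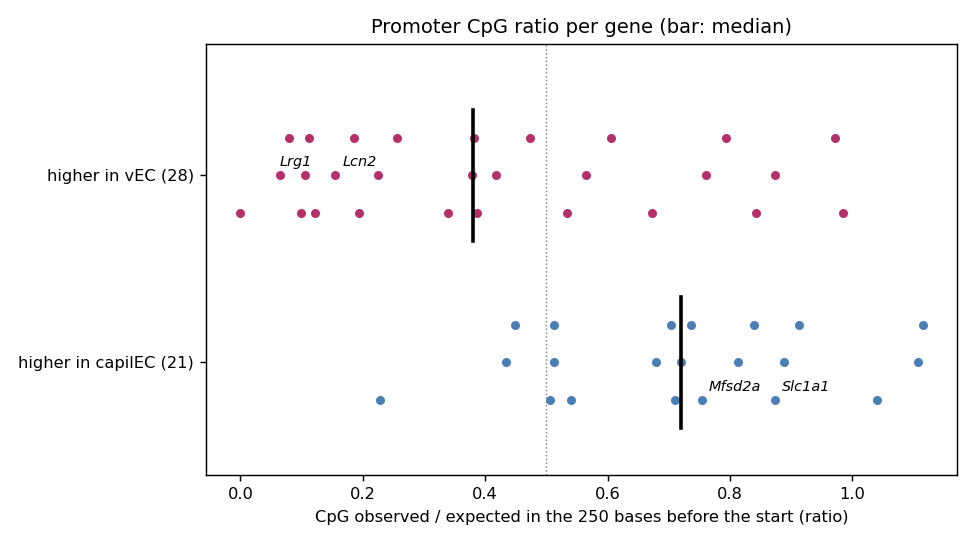
Ratio of observed to expected CpG in the 250 bases before the start, 1 point per gene, for genes higher in vEC (top) and higher in capilEC (bottom); bars are medians and the dotted line marks 0.5. The medians are 0.38 and 0.72, with Lrg1 and Lcn2 at 0.105 and 0.154 and Mfsd2a and Slc1a1 at 0.754 and 0.873.

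Lists of genes chosen for known roles were read next, each against the share of all measured genes given above and against their median log2 difference of 0.07, which was -0.38, -0.42, -0.11 and 0.00 on plates s169s, s480s, s482s and s483s. Of 17 measured genes of a venous list, 14 were at least 2-fold higher in vEC and 0 in capilEC, 8 met the size rule, with a median of 2.60 (2.19 to 3.12 on the plates). Of 13 genes of a capillary list, 0 were 2-fold higher in vEC and 11 in capilEC, 6 met the size rule, with a median of -1.87 (-2.03 to -1.75); without the 3 cells that went against their labels it was 10 in capilEC. Both lists were chosen with results of these data known and may overlap the genes that set the labels. Other list members named from here on, beyond those that met the size rule and the extremes of a list, were picked after their values were seen.

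The venous list ran from Lrg1 at 6.48 to Emcn, which encodes endomucin, at -0.60. Nr2f2 stood at 175, 93.3, 121 and 128 CPM in vEC on the 4 plates against 18.9, 15.4, 20.6 and 15.3 CPM in capilEC, a log2 difference of 2.59, and 7.83 CPM in aEC. It also overlaps a clone-named gene of the opposite strand over 643 exon bases. Vwf, von Willebrand factor of haemostasis, stood at 1224, 1583, 1459.6 and 1185 CPM in vEC against 136, 324, 207 and 270.3 CPM in capilEC (2.46), and 203 CPM in aEC. Slc38a5, a glutamine and serine carrier, was high under both labels, at 2026 CPM in vEC and 764 CPM in capilEC (1.40), but 47.4 CPM in aEC. Ephb4, the receptor of veins in the embryo, did not separate the labels, at 85.8 CPM in vEC and 106 CPM in capilEC, with plate differences from -3.80 to 1.63.

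Single cells were placed by the mean log2(CPM + 5) of each list. The venous list minus the capillary list had a median of 0.19 over vEC cells (-2.20 to 3.13) and -4.05 over capilEC cells (-7.07 to -0.06), with aEC cells between at -2.63. Of 787 capilEC cells, 68 (8.64%) lay inside the vEC range, and 0 passed the vEC median. Plate s169s held 50 of the 68, 22.4% of its capilEC cells, against 4.67%, 3.03% and 2.31% on the other plates. On s169s the capilEC cells had a higher median, -3.12, against -4.67, -4.40 and -4.42 on s480s, s482s and s483s. In the other direction 18 of 45 vEC cells lay inside the capilEC range.

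**Figure D4:**
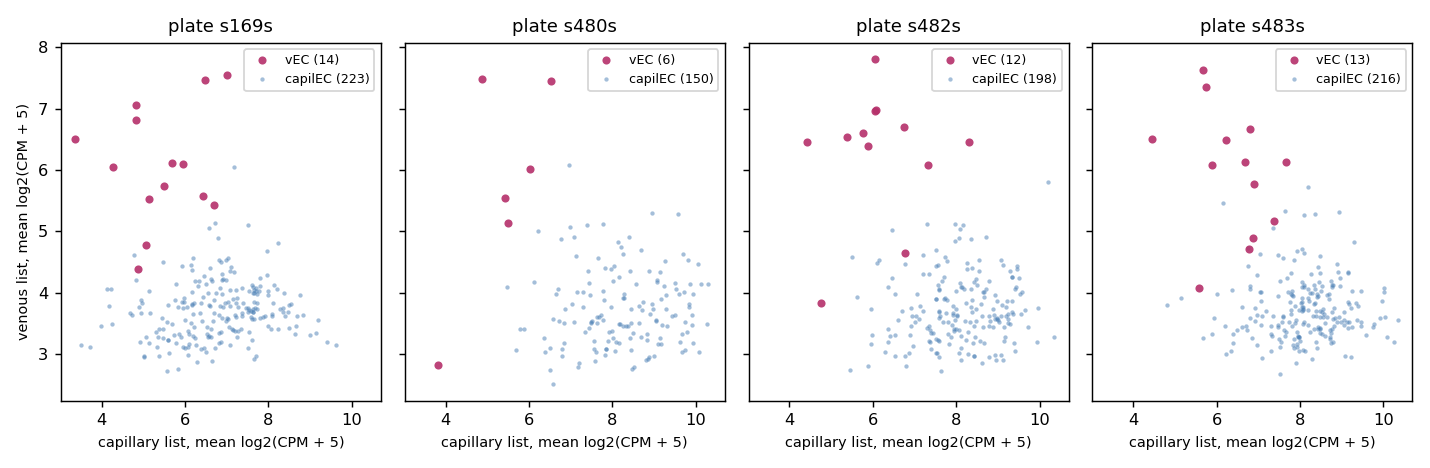
Each point is a cell, placed by the mean log2(CPM + 5) of the capillary list (horizontal) and of the venous list (vertical), with vEC in red and capilEC in blue and 1 panel per plate. The vEC cell at the lower left of plate s480s is the cell with 382 CPM of the endothelial list, and the capilEC cells of plate s169s lie further left, with a median of 6.83 against 8.25, 8.10 and 8.10 on s480s, s482s and s483s.

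**Figure D5:**
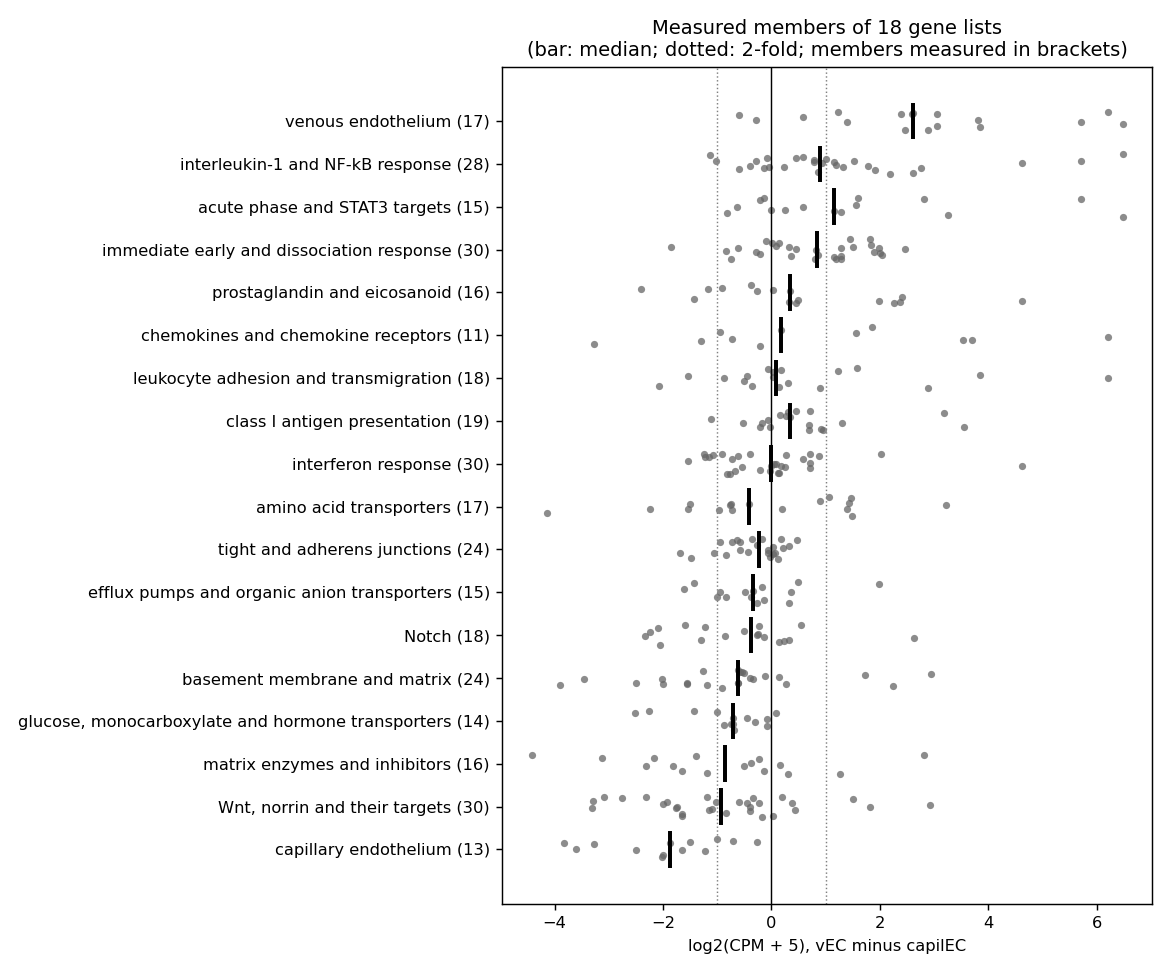
Log2(CPM + 5) of vEC minus capilEC for the measured members of 18 gene lists, 1 point per gene, with a bar at the median of each list and dotted lines at 2-fold. The medians run from 2.60 in the venous list to -1.87 in the capillary list; the interleukin-1, acute phase and immediate early lists lie at 0.89, 1.15 and 0.84 and the Wnt list at -0.93.

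Genes of leukocyte traffic lay on both sides. Of 18 measured adhesion and transmigration genes, 5 were 2-fold higher in vEC and 2 in capilEC, with a median of 0.09. Ackr1, the atypical chemokine receptor that hands chemokines across venular endothelium, stood at 789, 439, 466 and 342 CPM in vEC against 1.06, 4.79, 0.433 and 0.513 CPM in capilEC, a log2 difference of 6.20. It missed the size rule because it was read in under 50% of vEC cells: 19 of 45 held over 100 CPM, against 1 of 787 capilEC cells. A read after thinning was found in 5.72% of capilEC cells and 8.03% of MG cells, so the capilEC share was not set apart from background. Icam1, an integrin ligand, had 182 CPM in vEC and 75.3 CPM in capilEC (1.22), but was lower in vEC on s482s, where the difference was -0.56. Selp, P-selectin, held over 100 CPM in only 3 vEC cells and was at 0 on plates s169s and s483s in vEC. The list's lowest was Cd274, the checkpoint ligand PD-L1, at 3.61 CPM in vEC and 31.4 CPM in capilEC (-2.08).

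Among 11 measured genes of chemokines and their receptors, 5 were 2-fold higher in vEC and 2 in capilEC. Gpr182 stood at 92.0, 227, 371 and 407 CPM in vEC against 6.96, 23.7, 16.7 and 26.3 CPM in capilEC, with 0.830 CPM in aEC. Ackr1 and Gpr182 both bind chemokines without G protein signalling. Cxcl1, a neutrophil chemokine gene, stood at 404, 2.86, 2.77 and 139.6 CPM in vEC against 25.3, 0.0251, 3.06 and 1.93 CPM in capilEC, so it rests on 2 plates, and 1 cell held 56.7% of its vEC reads. Cx3cl1, fractalkine, had 93.7 CPM in vEC and 238 CPM in capilEC (-1.30), and Cxcl12 was the list's lowest.

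Genes that interleukin-1 and NF-kB signalling induce, or that carry it, leaned to vEC. Of 28 measured, 13 were 2-fold higher in vEC and 2 in capilEC, and 5 met the size rule towards vEC. The median was 0.89, and it was 1.88, 1.37, 0.56 and 0.42 on the plates. The 5 were Lrg1, Lcn2, Ptgs2, Il1r1 and Nfkbiz, of which all but Nfkbiz stand in other lists too. Il1r1, the interleukin-1 receptor, stood at 425, 359, 193 and 216 CPM in vEC against 23.2, 61.2, 31.6 and 45.7 CPM in capilEC, a log2 difference of 2.60, and at 6.32 CPM in aEC. Nfkbiz, an atypical inhibitor of NF-kB, stood at 139, 184, 25.9 and 83.2 CPM in vEC against 16.04, 8.15, 24.4 and 16.6 CPM in capilEC, so on s482s the labels were alike. The 2 members 2-fold lower in vEC were the NF-kB subunits Relb (-1.14) and Nfkb2 (-1.02). A single vEC cell held 93.2% of the vEC reads of Nfkb2, and without the 3 cells that went against their labels its difference was -2.28, the lowest of the list, and that of Relb -1.13.

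Of 15 measured acute phase and STAT3 target genes, 8 were 2-fold higher in vEC and 0 in capilEC, with a median of 1.15. Without the 3 cells that went against their labels the counts were 8 and 1, with Il4ra, an interleukin-4 receptor chain, at -1.05. The plate medians were 1.15, -0.02, 0.87 and 0.41. Serpina3g, a serine protease inhibitor, had 170.2 CPM in vEC and 13.4 CPM in capilEC (3.25), but 1 cell held 31.9% of its vEC reads. Cp, ceruloplasmin of iron export, stood at 220.3, 536, 759 and 462 CPM in vEC against 177, 153, 130.1 and 194 CPM in capilEC (1.60), and reached 501 CPM in aEC. Il6st, the shared receptor chain of the interleukin-6 family, had 529 CPM in vEC and 150.2 CPM in capilEC (1.78), higher in vEC on all 4 plates.

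Prostaglandin genes lay on both sides. Of 16 measured, 5 were 2-fold higher in vEC and 3 in capilEC. Pla2g4a, the cytosolic phospholipase that frees arachidonic acid, stood at 442, 413, 307 and 380.1 CPM in vEC against 99.8, 68.4, 56.8 and 47.8 CPM in capilEC (2.42). It and Ptgs2, the next step, both met the size rule. Ptges, a prostaglandin E synthase, was lower in vEC, at 19.5, 0, 47.1 and 6.12 CPM against 44.9, 65.8, 82.7 and 50.5 CPM in capilEC (-1.43). The list's lowest was Tbxa2r, the thromboxane receptor, with 0.142 CPM in vEC and 22.3 CPM in capilEC. Ptgs1, Ptgis and Slco2a1, the prostaglandin carrier, were 2-fold higher in vEC when pooled, but each was lower in vEC on at least 1 plate.

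Immediate early genes, which rise within minutes of many stimuli and also during tissue dissociation, were higher in vEC. Of 30 measured, 14 were 2-fold higher in vEC and 1, Cyr61, in capilEC, with a median of 0.84 and plate medians of 1.01, 1.03, 0.14 and 0.87. Without the 3 cells that went against their labels, 14 and 2 were. Their summed level was 9961 CPM in vEC (8223 to 13252 on the plates) and 5138 CPM in capilEC (4437 to 5845). Zfp36, an RNA-destabilising protein gene, was the steadiest, at 1251, 1418, 1201 and 1042 CPM in vEC against 329.9, 404, 324 and 281 CPM in capilEC, a log2 difference of 1.82 (1.80 to 1.91). Gadd45g (2.46) and Gadd45b (2.03), stress response genes, met the size rule, and Egr1, a transcription factor gene, had 458 CPM in vEC and 111 CPM in capilEC (2.00). The part of dissociation in the differences of this list, and of the interleukin-1, acute phase and prostaglandin lists, was not tested. Over single cells the sum ranged from 823 over a median of 6819 to 30868 CPM in vEC and from 116 over 3682 to 37764 CPM in capilEC, so the labels overlapped widely.

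Interferon response genes were spread around 0. Of 30 measured, 2 were 2-fold higher in vEC and 5 in capilEC, with a median of -0.02. Ifitm1 led the list, while Irf7, a regulator of interferon genes, was its lowest, at 99.5, 69.5, 53.9 and 45.9 CPM in vEC against 181, 161, 198 and 218 CPM in capilEC (-1.55). Among 19 class I antigen presentation genes, 3 were 2-fold higher in vEC and 1 in capilEC, with a median of 0.35. The classical gene H2-K1 had 1369.6 CPM in vEC and 838 CPM in capilEC (0.70), higher in vEC on all plates, and B2m, the shared light chain, differed by 0.16. H2-Q7 stood at 203, 285, 88.2 and 204 CPM in vEC against 14.4, 16.6, 12.2 and 19.4 CPM in capilEC, and H2-Q6 at 192, 87.6, 89.2 and 159.7 CPM in vEC against 7.53, 7.55, 12.9 and 0.770 CPM in capilEC. Of 6 class II genes, 5 were 2-fold higher in vEC and 1 in capilEC with all cells, but 0 and 1 without the 3 cells that went against their labels. Cd74, the invariant chain, then had a log2 difference of 0.33, against 2.79 with all cells.

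Carriers of nutrients ran in both directions. Of 17 measured amino acid transporters, 6 were 2-fold higher in vEC and 4 in capilEC, with a median of -0.40. Only 1 of the 6, Slc38a5, but all 4 of those higher in capilEC, kept that direction on all 4 plates. Slc38a5 stood at 3666, 1631, 1804 and 1471 CPM in vEC against 812, 691, 747 and 799 CPM in capilEC, and 87 of 787 capilEC cells (11.1%) lay above the vEC median of 2195 CPM. The highest of the list, Slc1a4, an alanine and serine carrier, had 57.5 CPM in vEC and 1.73 CPM in capilEC (3.21), but over 100 CPM in only 5 vEC cells. Slc7a5, the large neutral amino acid carrier, was lower in vEC at 204, 28.1, 90.4 and 299.8 CPM against 334, 687, 542 and 512 CPM in capilEC (-1.50). Slc7a1, the cationic amino acid carrier, had 237 CPM in vEC and 693 CPM in capilEC (-1.53). Of the other 4 members 2-fold higher in vEC, Slc38a1 and Slc7a8 owed 99.0% and 96.5% of their vEC reads to 1 cell, and without it stood at -0.46 and -1.26. For Slc38a1 this was the vEC cell that went against its label, and without the 3 such cells the list's counts were 5 and 4.

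Among 14 carriers of glucose, monocarboxylates and hormones, 0 were 2-fold higher in vEC and 4 in capilEC, with a median of -0.71. Slco1c1, a thyroid hormone carrier, stood at 722, 763, 578 and 726 CPM in vEC against 1929.8, 1633, 1875 and 1980.1 CPM in capilEC, a log2 difference of -1.43, and at 1637 CPM in aEC. Slc2a1, the glucose carrier GLUT1, was high under both labels, at 2185 CPM in vEC and 3573 CPM in capilEC (-0.71), with a plate range of -0.99 to 0.06. The lowest of the list, Slc29a4, a monoamine carrier, had 0.283 CPM in vEC and 25.2 CPM in capilEC. Of 15 efflux pumps and organic anion carriers, 1 was 2-fold higher in vEC and 3 in capilEC, or 1 and 2 without the 3 cells that went against their labels. The main pumps lay within 2-fold, with Abcb1a, the gene of P-glycoprotein, at 796 CPM in vEC and 875 CPM in capilEC (-0.14) and Abcg2 at 1535 CPM in vEC and 1218 CPM in capilEC (0.33).

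Receptors of vesicle uptake lay mostly lower in vEC. Of 21 genes of vesicle transport and lipid uptake, 1 was 2-fold higher in vEC and 7 in capilEC, with a median of -0.66. Tfrc, the transferrin receptor, stood at 189.7, 291, 178 and 211 CPM in vEC against 381, 1222, 739.7 and 763 CPM in capilEC (-1.87). Igf1r, the insulin-like growth factor receptor, met the size rule at 34.6 CPM in vEC and 173 CPM in capilEC (-2.17), and Insr had 66.5 CPM in vEC and 171 CPM in capilEC (-1.30). The member 2-fold higher in vEC was Prkcdbp, which encodes a cavin of caveolae, at 456 CPM in vEC and 177 CPM in capilEC (1.34). Cav1, caveolin-1, stood at 2144, 1381, 1580.2 and 1420.2 CPM in vEC against 1384, 903, 756 and 794 CPM in capilEC (0.77), higher in vEC on all plates.

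Genes of Wnt and norrin signalling, which sets up and keeps the blood-brain barrier, lay mostly on the capilEC side. Of 30 measured, 3 were 2-fold higher in vEC, and 15, of which 14 on all 4 plates, in capilEC, with a median of -0.93. The lowest was Axin2, a feedback inhibitor that the pathway induces, at 2.49, 3.81, 2.77 and 12.6 CPM in vEC against 21.3, 101, 181 and 121 CPM in capilEC (-3.31). Notum, a secreted Wnt deacylase, had 4.82 CPM in vEC and 91.6 CPM in capilEC (-3.30). Lrp5, a coreceptor, had 4.39 CPM in vEC and 74.6 CPM in capilEC (-3.08), and Apcdd1, an inhibitor, 103 CPM in vEC and 337 CPM in capilEC (-1.66). Nkd1, another feedback inhibitor, stood at 66.1, 99.5, 62.0 and 153 CPM in vEC against 144, 532, 381 and 363 CPM in capilEC (-1.76). Lef1, a transcription factor of the pathway, differed little, at 300.0 CPM in vEC and 454 CPM in capilEC (-0.59), and Fzd4, the norrin receptor, pointed both ways on the plates (-2.35 to 2.31). Higher in vEC were Nkd2 (2.92) and the ligand gene Wnt5a, at 126, 245, 189 and 79.2 CPM in vEC against 15.6, 49.1, 45.9 and 37.5 CPM in capilEC (1.81). Most of these transcripts were sparse: Axin2 passed 100 CPM in 0 of 45 vEC cells and 116 of 787 capilEC cells (14.7%).

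Of 18 Notch genes, 1 was 2-fold higher in vEC and 7 in capilEC, with a median of -0.39. The receptor gene Notch4 was the lowest, with 19.1 CPM in vEC and 116 CPM in capilEC (-2.33), and Hey1, a target, had 14.2 CPM in vEC and 85.5 CPM in capilEC (-2.24), with 90.5% of its vEC reads in 1 cell. Notch1 had 86.0, 162, 225 and 311 CPM in vEC against 65.2, 830.1, 597 and 654 CPM in capilEC (-1.30), and the direction turned on s169s, where the capilEC level was low. Dll1, a ligand, was higher in vEC at 43.1 CPM against 2.82 CPM in capilEC, but 1 cell held 54.7% of its vEC reads. Of 24 genes of the VEGF, angiopoietin and PDGF families, 6 were 2-fold higher in vEC and 5 in capilEC. Flt1, a receptor that binds VEGF, stood at 999, 1833, 1010.4 and 1454 CPM in vEC against 2041, 3223, 2777 and 2993 CPM in capilEC (-1.10). The neuropilins parted: Nrp2 was at 263 CPM in vEC and 27.4 CPM in capilEC (3.05), and Nrp1 at 108 CPM in vEC and 361 CPM in capilEC (-1.69).

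Matrix genes lay mostly lower in vEC. Of 24 measured basement membrane and matrix genes, 3 were 2-fold higher in vEC and 9 in capilEC, with a median of -0.62. The lowest was Nid1, nidogen-1, which links laminin to collagen IV, at 1.78, 0.476, 0.504 and 0.956 CPM in vEC against 52.7, 152, 51.5 and 82.6 CPM in capilEC (-3.91). Hspg2, perlecan, had 10.3 CPM in vEC and 163 CPM in capilEC (-3.46), but on s169s the labels were alike, at 15.99 CPM in vEC and 12.6 CPM in capilEC. Col4a2, a collagen IV chain, was lower in vEC on all plates, at 103 CPM against 314 CPM in capilEC (-1.56). Of 16 matrix enzymes and inhibitors, 2 were higher and 8 lower in vEC by 2-fold. Htra1, a secreted serine protease, stood at 2.84, 0, 1.01 and 1.53 CPM in vEC against 152, 125, 113 and 139 CPM in capilEC, a log2 difference of -4.42. It missed the size rule because under 50% of capilEC cells had a read, and over 100 CPM were 0 of 45 vEC cells and 118 of 787 capilEC cells (14.99%). Of 24 junction genes, 21 lay within 2-fold and 3 were 2-fold lower in vEC, near the shares of all genes. Of genes with at least 50 CPM in either label 83.2% lay within 2-fold, and 13.3% of all genes measured were 2-fold higher in capilEC. Cldn5 stood at 4132, 2598, 3252 and 3088 CPM in vEC against 4143, 4088, 4769 and 4608 CPM in capilEC (-0.44). Ocln lay at -0.27 and Tjp1 at -0.03.

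The vEC cells differed among themselves. After thinning, 29 of 45 vEC cells (64.4%) held a read of at least 6 of the 8 genes Ackr1, Lcn2, Lrg1, Ptgs2, Vcam1, Vwf, Nr2f2 and Slc38a5, against 9 of 787 capilEC cells (1.14%). The median vEC cell held 6 of them and the median capilEC cell 2. A single read counts here, and thinned MG cells had one of Slc38a5 in 59.9%, Vcam1 in 30.7%, Vwf in 29.2% and Lcn2 in 12.4%. For Ackr1, Ptgs2, Lrg1 and Nr2f2 the MG shares were 8.03, 7.3, 5.84 and 4.38%. Low counts in capilEC cells were thus not set apart from background. All 8 genes were higher in vEC when pooled, so the gap between labels follows in part from their choice. All 8 were found in 9 vEC cells and in 0 of 787 capilEC cells, which allows a share of up to 0.381%. Ackr1 went with Lcn2: 19 of the 20 vEC cells with an Ackr1 read also held Lcn2, against 16 of the other 25. Over the 45 cells, Pearson's r of log2(CPM + 5) was 0.573 for Ackr1 with Lcn2, 0.519 for Lcn2 with Vwf and 0.510 for Ackr1 with Lrg1, and 0.0257 for Nr2f2 with Slc38a5. Cells share libraries and differ in depth, so these values describe the cells and are no test. The r values include the vEC cell that went against its label, which held 0 CPM of Lcn2, Vcam1 and Slc38a5. The 9 capilEC cells with 6 or 7 of the genes came from s169s (5) and s482s (4), and their venous minus capillary value lay between -4.40 and -1.49, inside the vEC range for 2 of them.

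Summed over cells, markers of other cells were low under both labels. Of single cells, 2 vEC and 69 capilEC passed a set bound for markers of another class. The classes were mural, smooth muscle, fibroblast, microglia, astrocyte, oligodendrocyte, neuron and red blood cell. The 13 pan-mural genes summed to 155 CPM in vEC (23.3 to 384 on the plates) and 176 CPM in capilEC (141 to 224), the 10 smooth muscle genes to 105 and 95.2 CPM, the 10 fibroblast genes to 4.61 and 7.09 CPM, and the 14 microglia and macrophage genes to 242 and 323 CPM, in vEC and capilEC. None of the fibroblast genes reached 5 CPM under either label. The 12 astrocyte genes summed to 107 CPM in vEC (29.5 to 217 on the plates) and 223 CPM in capilEC (104 to 389), and 5 of the 7 measured were 2-fold lower in vEC. The 8 leukocyte genes summed to 111 CPM in vEC (5.33 to 494) and 8.04 CPM in capilEC (0.711 to 22.4), with the highest vEC plate the one that holds the cell of 6934 CPM. Without the 2 vEC and 69 capilEC cells that passed the bound, 39 genes met the size rule towards vEC and 23 towards capilEC. Among them were all 35 and 22 of the 25 found with every cell. The part of reads of other cells below the bound was not tested. Of 19 arterial genes measured, 2 were 2-fold higher in vEC, Mgp and Vegfc, and 8 in capilEC, with a median of -0.64. Gja4, a connexin gene, had 1.98 CPM in vEC, 20.1 CPM in capilEC and 162 CPM in aEC, and Unc5b, a netrin receptor gene, had 3.68, 71.8 and 197 CPM in the same order. Over single cells the mean log2(CPM + 5) of the arterial list was alike in both labels, with a median of 3.29 in vEC and 3.32 in capilEC, beside 5.03 in aEC, and the vEC median was the higher on s480s and s482s.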

How the data were processed

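Single cells of adult mouse brain vascular fragments were read with Smart-seq2, and the authors deposited a table of raw counts and a table of cell labels. Per the submitters' processing notes, the tools included SAMtools 1.16.1 and featureCounts (Subread 1.4.6-p5); GRCm38 and GRCm39 both appear there, without a stated role, and the aligner was not given in the sources used here. Each gene's counts were added up within a label and divided by the summed reads to give CPM with Python 3.11.15, NumPy 2.4.6, SciPy 1.17.1 and pandas 2.3.3. Scaling factors for the alternatives came from R 4.3.3, edgeR 4.0.16 and DESeq2 1.42.0. Intervals are exact Poisson or exact binomial intervals at 95%. A count of 0 allows up to 3 reads, or 0.213 CPM in vEC and 0.0173 CPM in capilEC. Genes are compared between labels and not with each other, since CPM is not per length.

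A gene was measured with over 5 CPM in either label, and met the size rule with at least 50 CPM in the higher label, a read in at least 50% of its cells and a 4-fold difference of CPM + 5. Named were the 15 largest per direction with 1 direction on all plates, list members that met the size rule, and the extremes of each list; 2 of these genes are not reported here. The members and lists were chosen with earlier results of these data known. Of 1076 list entries 1075 matched a gene, 15 by another symbol. No cell was filtered, no doublet caller was run, and no test was made, since each label was 1 sample and animals are not named. The summing was tested on simulated data. Alternatives changed the scaling, weights, pseudocount, thresholds, depth and cells used. Start regions are from RefSeq (GRCm38.p6), and gene overlaps from GENCODE vM21.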

Additional observations from a re-analysis of the deposited data

How the results depend on the processing

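Of 1020 values of the 60 genes under 17 alternatives, 0 reversed and 1001 moved by less than the SD over plates. The alternatives with no minimum CPM and no minimum share of cells change only which genes meet the rule, so their values could not move. The 60 genes were chosen for a large difference in these data, so reversals were unlikely in advance. The count higher in vEC, 35 genes, lay between 27 and 39 under all alternatives but 2 kinds: it was 95 with no minimum share of cells, and 33 to 46 when each plate was left out in turn. The count higher in capilEC, 25 genes, was 43 with equal weight for every plate, 12 with a pseudocount of 20 CPM, 81 with no minimum share of cells, and 47 when each gene's most abundant cell was dropped, and 27 to 34 when each plate was left out. Of the 35 genes 30 to 33 and of the 25 genes 16 to 19 still met the rule when a plate was left out. Equal plate weights and dropping that cell moved the median of all measured genes by -0.365 and -0.342. With cells thinned to 100000 reads, 30 of the 35 genes higher in vEC and 15 of the 25 higher in capilEC still met the rule. Without the 3 cells that lack the endothelial list, a setting chosen after seeing the data, the counts were 36 and 24. The causes were not tested. The number of cells limits rare transcripts: absence from all 45 vEC cells allows a share of up to 6.67%. No paired analysis was possible because each label is 1 sample and no label gives a replicate number.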

Other observations

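A single vEC cell on plate s483s, the deepest with 854836 reads, held 100% of the vEC reads of Mki67 and 99.4% of those of Top2a, genes of dividing cells. Its pan-endothelial sum was 11251 CPM, against a vEC median of 15350 CPM. The cell held 426 CPM of Vwf and 306 CPM of Slc38a5. Of 16 cell cycle genes, 8 were 2-fold higher in vEC and 3 in capilEC, but 1 and 2 of these had the same direction on all 4 plates. Ccnd2, a cyclin of the first growth phase, was the lowest of the list, with a log2 difference of -3.25.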
